A study of Sus scrofa with 27 samples.

Results

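The genes described here are 8 immediate early transcription factor genes of the pig lung: EGR1, EGR2 and EGR3 of the EGR family, FOS, FOSB and FOSL1 of the FOS family, JUNB of the JUN family, and ATF3. They were chosen by gene name from a list of 10 and by their raw counts, with at least 10 counts required in at least 1 library. In the deposited table of 31908 genes 8 of the 10 names were found, and all 8 lay far above that minimum, since the lowest of their highest counts was 1785 (EGR3). None lay just outside it. JUN and IER2 have no name in the table and are described apart. The 27 libraries are RNA-seq of biopsies of isolated Large-White pig lungs kept by ex vivo lung perfusion (EVLP), in which a donor lung is ventilated and perfused outside the body. In the Gold Standard group (GS, 5 pigs, numbered 9, 17, 44, 55 and 77) part of the perfusate was replaced at intervals, and in the Pediatric Dialysis group (PD, 4 pigs, numbered 2, 3, 4 and 5) a hemodialyzer worked on the circuit instead. All lungs came from a non-heart-beating donor model, went through cold ischemia and were perfused with Steen solution holding methylprednisolone, cefuroxime and heparin, so both groups received the glucocorticoid. The biopsy called 0h was taken after cold ischemia and before perfusion, and the others after 6h and 12h of EVLP. The labels used here give no age of the animals.

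Immediate early genes are transcribed within minutes of a stimulus without new protein synthesis, and most of their messengers are short-lived. Growth factors, stretch and stress reach many of them through MAP kinases, ternary complex factors and serum response factor, which binds a sequence called the CArG box. FOS and JUN family proteins pair as the transcription factor AP-1, ATF3 is a stress-induced protein of the same leucine zipper class, and EGR proteins are zinc finger factors that bind GC-rich sites. In lung, EGR1 is known as a gene induced by ischemia and reperfusion.

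The stretches below hold every CArG box found by a search of 500 bases before to 50 bases after the gene starts of the deposited table, on both strands. They are shown because serum response factor is the best known regulator of this gene class. They were read from the RefSeq genome of the build of the files (Sscrofa11.1) and are written 5′ to 3′ on the strand of the gene, with the box in capitals and 10 bases on either side.
EGR1, chr2:140440976-140441005, plus strand: cccggaaacgCCATATAAGGagcaggaagg
EGR1, chr2:140441014-140441043, plus strand: ccggaaccacCCTTATTTGGgcagcgcctt
EGR1, chr2:140441030-140441059, plus strand: ttgggcagcgCCTTATTTGGagcgccccga
EGR1, chr2:140441298-140441327, plus strand: gccggtcttgCCATATTAGGgcttcctgct
EGR1, chr2:140441320-140441349, plus strand: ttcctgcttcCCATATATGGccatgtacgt
EGR3, chr14:6948941-6948970, minus strand: ctttgtctgtCCATATATGGgcagctacgt
FOS, chr7:98449042-98449071, plus strand: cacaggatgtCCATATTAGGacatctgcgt
FOSB, chr6:51837436-51837465, plus strand: gcgccgagctCCTTATATGGctaattgcgt

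EGR1 held 5 boxes, the first bases of which lay at -435, -397, -381, -113 and -91 from its start. EGR3, FOS and FOSB held 1 box each, at -276, -297 and -273. The windows of EGR2, FOSL1, JUNB and ATF3 held none, which says only that these letters are not in these windows. Of 20273 windows of the same 550 bases at protein-coding genes, 2.94% held a CArG box and 0.0592% held at least 2. The AP-1 site TGANTCA and the cAMP response element TGACGTCA occurred in 0 of the 8 members, against 11.7% and 2.48% of all windows. The EGR site GCGNGGGCG occurred in FOSB alone, at -381, in a stretch shown because it is a match to the binding letters of the EGR members themselves, against 12.7% of all windows.
FOSB, chr6:51837328-51837356, plus strand: cactgcgcagGCGCGGGCGggttccgcag
The table's starts are not the only ones annotated. RefSeq starts EGR1 at base 140440829 and FOSB at 51836780, upstream of the boxes, and its JUNB and ATF3 models begin at 66219435 and 130829678, outside the windows searched. A match is a description of letters and not a measured binding site.

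**Figure D1:**
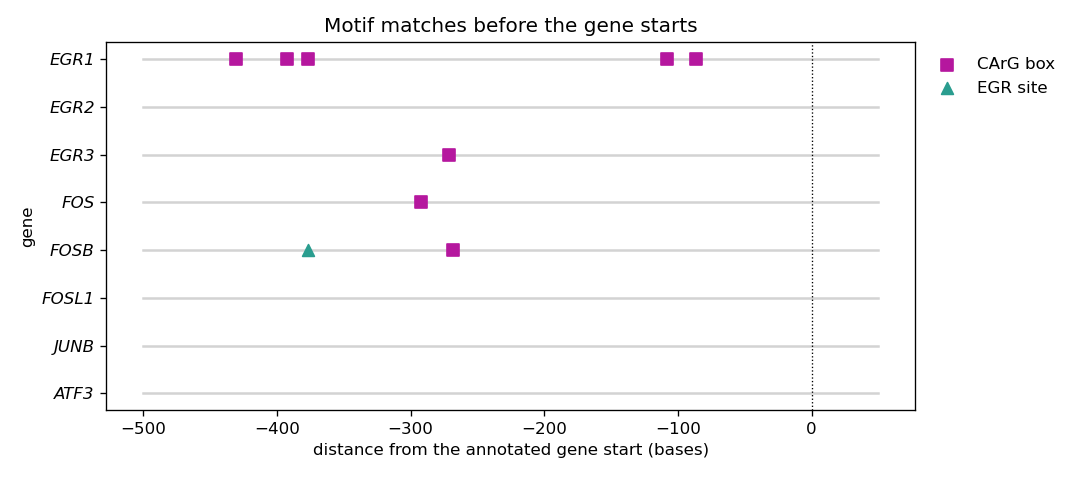
Position of each motif match relative to the gene start of the deposited table, in bases, for the 8 genes. EGR1 holds 5 CArG boxes between -435 and -82, while EGR3, FOS and FOSB hold 1 each and FOSB also holds the single EGR site.

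The libraries differed in depth by group. Total counts were 14650700 to 21820935 in the 12 PD libraries, 26335584 to 41802541 in the 6 libraries of GS pigs 9 and 17, and 51708598 to 67522703 in the 9 libraries of GS pigs 44, 55 and 77, with no overlap. A count of 3, taken as the floor, was worth 0.129 to 0.324 CPM (counts-per-million after TMM scaling of library sizes) in PD and 0.0411 to 0.104 CPM in GS, and covers counting error only. The GS libraries also formed a pair of sets, as 3 genes had 0 counts in every library of pigs 9 and 17. The same 3 had at least 50 in every library of pigs 44, 55 and 77. For this reason the calls in GS and several changes are also given for each set alone below. Since no PD library was as deep as any GS library, the sequencing and the group cannot be told apart. Marker genes of lung cells were present in both groups. Summed alveolar type 2 markers (5 of 6 found) spanned 4960.2 to 14564 CPM in GS and 15328 to 88368 CPM in PD. In the test of the groups at 0h described below, however, 1 of the 5 was called higher in PD, 1 lower and 3 neither. Red cell markers (4 of 5 found) spanned 0.519 to 10.7 CPM in GS and 7.9 to 363 CPM in PD. Over all times together macrophage, endothelial, fibroblast and smooth muscle, alveolar type 1 and lymphocyte markers overlapped between the groups, and mesothelial markers (1 of 4 found) were at or near 0. In bulk tissue fewer cells of a type and less RNA per cell cannot be told apart.

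EGR1, a zinc finger activator encoded at chr2:140441421-140445296 on the plus strand (ENSSSCG00000014336), fell in GS at both times. Its level at 0h was 3301, 1466, 2290.3, 3304 and 2272 CPM in GS pigs 9, 17, 44, 55 and 77. After 6h it was 70.9, 23.3, 429.9, 2129.8 and 836 CPM in the same order. It was lower in 5 of 5 pigs, and lowest in pigs 9 and 17. EGR1 fell by 3.66 on the log2 scale (SE 0.98, adjusted p = 0.0171, 12.7-fold lower), a call lost in 4 of 10 alternatives, which were no block (-1.89), no filter on low counts (adjusted p = 0.0658), and leaving out pig 9 (-2.78) or pig 17 (-2.70). The adjusted p-values here come from edgeR's quasi-likelihood test with the pig as a block and Benjamini-Hochberg adjustment over all genes tested, and a gene counted as called where the adjusted p was under 0.05 with a change of 2-fold or more. After 12h EGR1 stood at 68.9, 25.8, 368, 692 and 2598 CPM, so pig 77 was then above its own start. The fall at 12h was -3.71 (SE 0.996, adjusted p = 0.0127, 13.1-fold lower), lost under the same 4 alternatives.

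EGR2 and EGR3 are further members of the zinc finger family. EGR2, at chr14:66284577-66291306 on the minus strand (ENSSSCG00000010224), had 67.1, 30.3, 53, 56.3 and 55.5 CPM in GS at 0h and 17.2, 14, 53.3, 84.3 and 69.8 CPM after 6h. The ranges overlapped and the change of -0.45 (SE 0.31, adjusted p = 0.294) did not pass. After 12h it was 30.2, 8.36, 35.5, 55 and 56.4 CPM, a change of -0.80 (SE 0.31, adjusted p = 0.0526) that did not pass either. EGR3, at chr14:6945936-6948684 on the minus strand (ENSSSCG00000009630), had 7.7, 2.12, 4.89, 24.6 and 5.53 CPM at 0h, then 1.28, 0.57, 4.42, 7.74 and 5.55 CPM after 6h and 0.328, 1.21, 1.56, 2.55 and 5.05 CPM after 12h. Pig 55 started highest and every pig was below its start at 12h. EGR3 changed by -1.34 at 6h (SE 0.51, adjusted p = 0.063, not called, though DESeq2 called it, and 11.9% of all genes) and fell by 2.04 at 12h (SE 0.54, adjusted p = 0.01, 4.11-fold lower).

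The FOS family did not move as a block, as FOS fell and FOSL1 rose over the 5 GS pigs. FOSB passed at neither time, and a difference between FOS and FOSB was not tested. FOS, at chr7:98449349-98455554 on the plus strand (ENSSSCG00000002383), the classic early partner of JUN proteins, had 1005, 1158, 714, 729 and 224 CPM in GS at 0h and 19.5, 26.7, 175, 379 and 431 CPM after 6h. It was lower in 4 of 5 pigs, with pig 77 above its low start. After 12h it was 14, 35.9, 179, 213 and 541 CPM, again with pig 77 alone above its start. FOS fell by 3.34 (SE 1.02, adjusted p = 0.0305, 10.1-fold lower) at 6h and by 3.46 (SE 1.03, adjusted p = 0.0206, 11.0-fold lower) at 12h. Without the block the changes were -1.93 and -2.01, and without the filter on low counts the adjusted p was 0.104 and 0.0782, so neither call held there or without pig 9 or pig 17.

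FOSB, at chr6:51837719-51844531 on the plus strand (ENSSSCG00000031616), a FOS-like partner of JUN proteins, had 1348, 703, 677, 787 and 85.2 CPM in GS at 0h. After 6h it was 37.5, 10.1, 1046, 1114 and 2008 CPM. The pigs parted, as pigs 9 and 17 were far below their start and the other 3 were above it. The change fitted with the pig as a block was -2.42 with an SE of 1.70 (adjusted p = 0.307), which is no call, while the mean of the pigs' log2 ratios was -1.12 and the fit without the block gave 0.18. After 12h the levels were 7.98, 40, 561, 909 and 2015 CPM, still parted in the same way except that pig 44 was then below its start, and the change was -2.71 (adjusted p = 0.218).

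FOSL1 (FRA-1), at chr2:6430153-6436173 on the plus strand (ENSSSCG00000012967), is an AP-1 partner known to be induced later than FOS. Its level in GS was 5.51, 0.67, 1.01, 3.68 and 1.72 CPM at 0h, 40.8, 5.13, 136, 82.5 and 163 CPM after 6h, and 19.2, 18.4, 135, 219.8 and 199 CPM after 12h. All 5 pigs were above their start at both times. FOSL1 rose by 4.66 (SE 0.73, adjusted p = 0.00103, 25.2-fold) at 6h and by 5.22 (SE 0.75, adjusted p = 0.000382, 37.4-fold) at 12h, the only member to rise in GS. Over 10 alternatives its change spanned 4.06 to 5.53 at 6h and 4.81 to 6.25 at 12h, highest without pig 9. With pigs 9 and 17 alone FOSL1 was not called at 6h.

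JUNB, at chr2:66214594-66215637 on the minus strand (ENSSSCG00000013735), a JUN family partner, had 114, 167, 149, 110.4 and 94.6 CPM in GS at 0h and 28, 46.7, 152, 198 and 173 CPM after 6h. ATF3, at chr9:130770428-130787462 on the minus strand (ENSSSCG00000015595), a stress-induced regulator of the same class, had 570.3, 175, 173, 265 and 123 CPM at 0h and 79.3, 25.3, 233, 489.6 and 372 CPM after 6h. After 12h JUNB had 26.4, 60.4, 149, 153 and 266 CPM. For both genes at 6h pigs 9 and 17 were below their start and pigs 44, 55 and 77 were not. The changes were -0.60 for JUNB (SE 0.45, adjusted p = 0.33) and -0.98 for ATF3 (SE 0.75, adjusted p = 0.352). ATF3 after 12h had 35.9, 36.2, 251, 293 and 583 CPM, a change of -1.01 (SE 0.77, adjusted p = 0.317), and JUNB at 12h differed by -0.51 (adjusted p = 0.379). JUNB lies wholly within HOOK2 on the opposite strand and EGR3 overlaps an unnamed opposite gene, and the strand setting of the counting is not given in the sources used here, so reads of these pairs may be mixed.

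Read over the 8 members, 1 was called higher and 2 lower in GS at 6h, where 5.5% of all 18594 genes tested were called higher and 5.56% lower. At 12h 1 was higher and 3 lower, against 6.99% and 8.66% of all genes. The median change of the 8 was -1.16 at 6h and -1.52 at 12h, against -0.05 and -0.08 over all genes. Because the members were selected with results of these data known, their counts are a description.

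**Figure D2:**
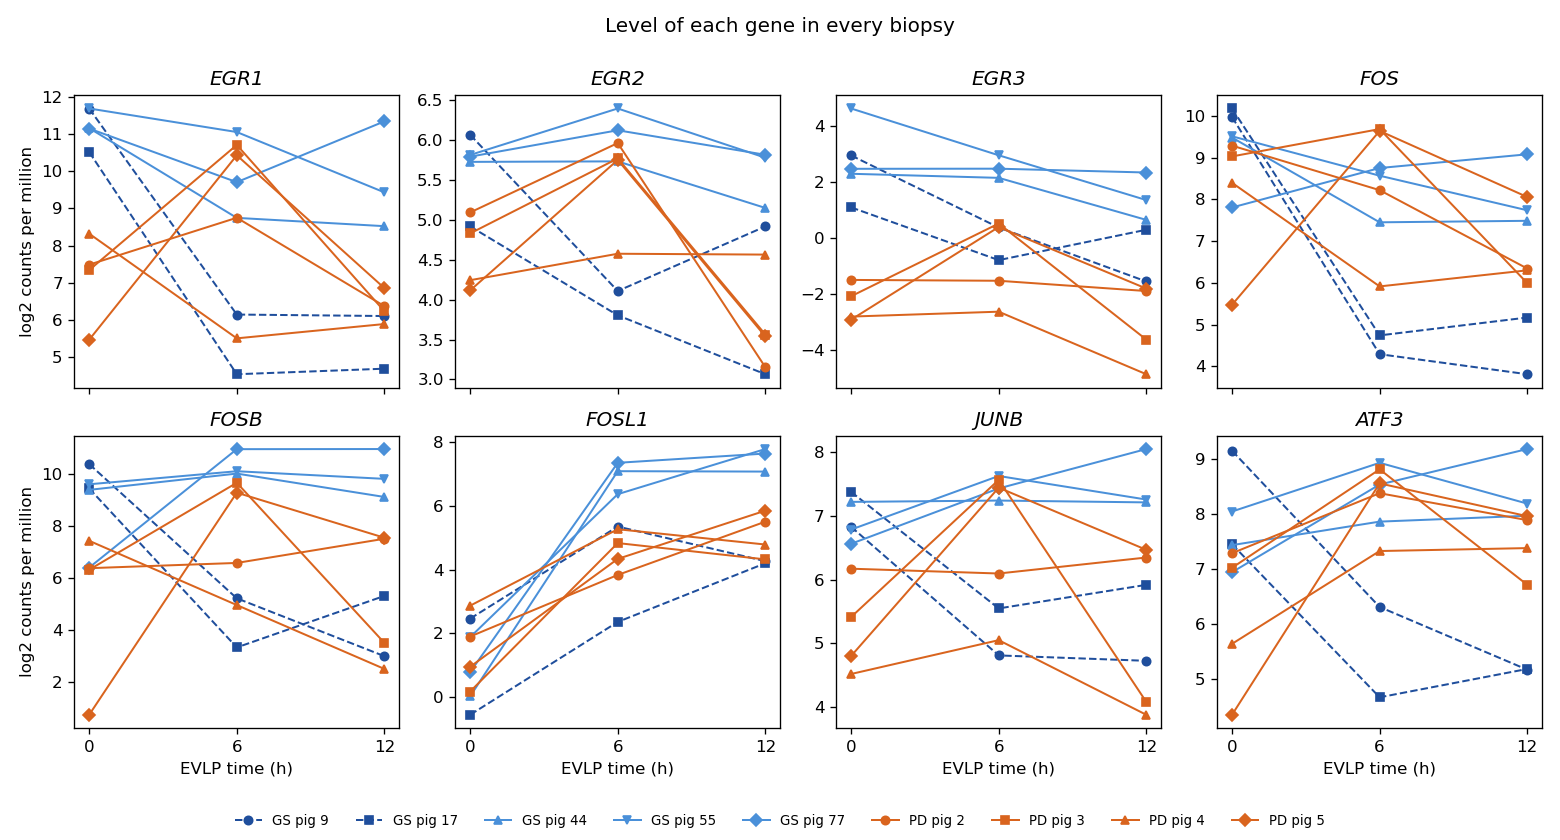
Level of each of the 8 genes in log2 CPM against EVLP time in hours, 1 line for each pig, with GS in blue (pigs 9 and 17 dashed) and PD in orange. FOSL1 is above its 0h level in every pig at both later times, while EGR1 drops in GS at 6h in 5 of 5 pigs and starts lower in PD.

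In PD 7 of the 8 members were tested, over 4 pigs. EGR1 had 179.7, 162, 320.0 and 44.3 CPM at 0h in pigs 2, 3, 4 and 5, then 431, 1675, 45.5 and 1381 CPM after 6h and 82.9, 75.4, 59.4 and 116 CPM after 12h. It was above its start in 3 of 4 pigs at 6h and in 1 of 4 at 12h. The 6h change was 1.98 with an SE of 1.04 (adjusted p = 0.58), and the 12h change was -1.23 with an SE of 0.91 (adjusted p = 0.44), neither of which passed.

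EGR2 had 34.1, 28.4, 18.9 and 17.3 CPM in PD at 0h and 62.4, 54.6, 23.8 and 53.9 CPM after 6h, above its start in 4 of 4 pigs. The change of 1.01 (SE 0.44, adjusted p = 0.52) did not pass. After 12h it was 8.85, 11.8, 23.7 and 11.6 CPM, so 3 of 4 pigs were then below their start, and the change of -0.78 (adjusted p = 0.315) did not pass. EGR3 had 2 to 6 counts in each PD library at 0h, so it was left out of the PD fit, and its counts after 6h were 5, 27, 2 and 30 in pigs 2, 3, 4 and 5, and 2, 1, 0 and 4 after 12h. Pigs 3 and 5 stood apart from the others at 6h.

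FOS in PD had 625, 522, 337 and 44.4 CPM at 0h and 298, 822, 60.2 and 798 CPM after 6h. FOSB had 83.7, 80.4, 174 and 1.65 CPM at 0h and 96.3, 819, 31.3 and 629 CPM after 6h. Both moved in different directions from pig to pig, and their changes of -0.08 (SE 0.89, adjusted p = 0.977) and 1.54 (SE 1.91, adjusted p = 0.771) did not pass. After 12h FOS had 81, 63.6, 78.7 and 266 CPM and FOSB had 184, 11.4, 5.65 and 189 CPM. Pig 5 was above its low start for both genes, and the changes of -1.91 (SE 0.90, adjusted p = 0.221) and -0.52 (SE 1.88, adjusted p = 0.895) did not pass.

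FOSL1 in PD had 3.71, 1.11, 7.29 and 1.91 CPM at 0h, 14.2, 28.5, 38.5 and 20.2 CPM after 6h and 45.3, 20, 27.6 and 57.6 CPM after 12h, with no overlap between 0h and either later time. Its 6h change of 3.05 (SE 0.59) had an adjusted p of 0.0815 and was not called, and it rose by 3.63 at 12h (SE 0.61, adjusted p = 0.0176, 12.4-fold). The call at 12h was lost without PD pig 3 and without PD pig 5, when 0 genes of the whole table were called.

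JUNB in PD had 72, 42.5, 22.8 and 27.8 CPM at 0h and 68.4, 189.8, 33 and 174 CPM after 6h. ATF3 had 156, 130.01, 49.7 and 20.3 CPM at 0h, 334, 451, 161 and 378 CPM after 6h, and 237, 105, 167 and 249.5 CPM after 12h, so the levels at 0h and 6h did not overlap. The changes at 6h were 1.36 for JUNB (SE 0.59, adjusted p = 0.51) and 2.01 for ATF3 (SE 0.57, adjusted p = 0.248), and neither passed. JUNB after 12h had 81.4, 16.8, 14.6 and 88.5 CPM, a change of 0.02 (SE 0.58, adjusted p = 0.985), while ATF3 was at 1.30 (SE 0.57, adjusted p = 0.186).

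Of the 7 members tested in PD, 0 were called at 6h, where 0.135% of the 15545 genes tested were called higher and 0.00643% lower. DESeq2 called FOSL1 and ATF3 there, and 2.75% of all genes. At 12h 1 was called higher and 0 lower, against 3.22% and 2.76% of all genes. The median change of the 7 was 1.54 at 6h, with 6 of 7 above 0, and -0.52 at 12h, against -0.02 and -0.05 over all genes.

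**Figure D3:**
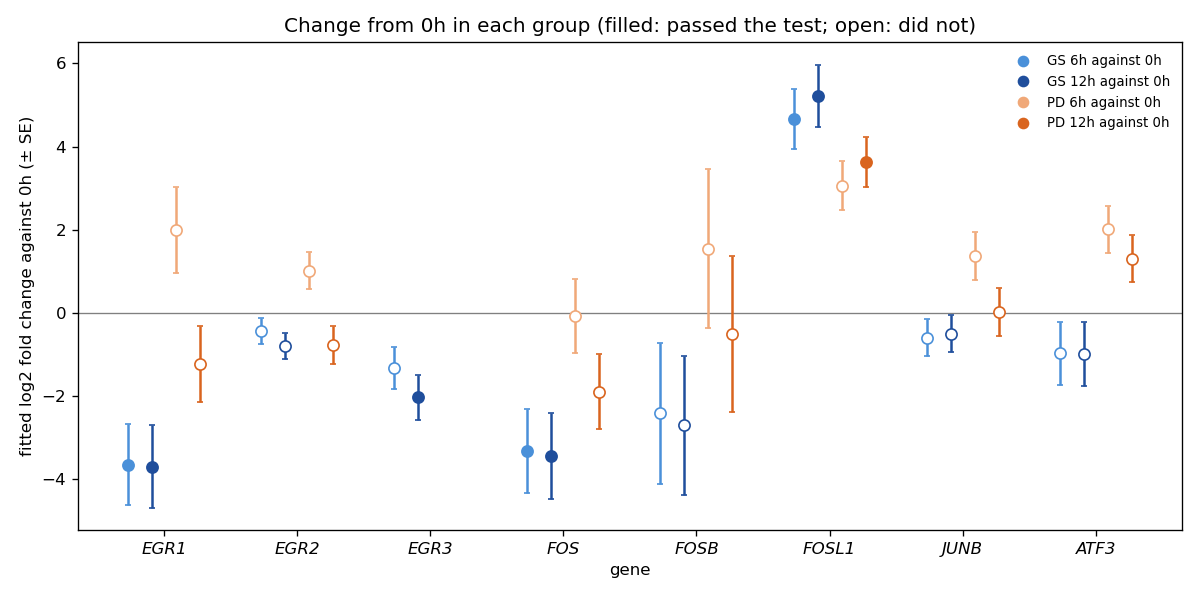
Fitted log2 fold change against 0h of each gene at 6h and 12h in GS and PD, with bars of 1 SE, filled points for changes that passed the test and open points for those that did not. FOSL1 lies above 0 in all 4 comparisons, and EGR1 and FOS lie below 0 in GS.

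Between 6h and 12h no member was called in either group. In GS 0 of 8 members passed, as 0% of all 18594 genes did, with changes from -0.70 to 0.57. Among all genes 882 had an unadjusted p under 0.05 there and DESeq2 called 2, with no member in either. In PD 0 of 7 passed, again with 0% of all genes. At an unadjusted p under 0.05 there were 1562 genes in PD, 3 of them members, and DESeq2 called 224 genes, 2 of them members. EGR1 was -3.22 (SE 0.96, adjusted p = 0.392) and EGR2 was -1.79 (SE 0.47, adjusted p = 0.392) from 6h to 12h in PD, and these are the 2 that DESeq2 called, beside 1.44% of all genes. The fit of all 27 libraries together called EGR2 and 2.75% of all genes. The median change of the 7 members from 6h to 12h in PD was -1.79, with 6 of 7 below 0, and that of the 8 in GS was -0.08, against -0.02 and 0.00 over all genes.

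The question of whether the dialysis circuit altered the response was tested as the PD change minus the GS change. At 6h EGR1 differed by 5.64 (SE 1.503), FOSB by 3.95 (SE 2.69), ATF3 by 2.98 (SE 1.03), FOS by 3.25 (SE 1.42), JUNB by 1.96 (SE 0.77) and EGR2 by 1.44 (SE 0.55), and the adjusted p was 0.783 or more for each. EGR3 passed the filter on low counts through GS alone and its PD ratios rest on 2 to 6 counts at 0h, so no test of it between the groups is given. FOSL1 differed by -1.55 (SE 0.95, adjusted p = 0.783), and its ratios overlapped between the groups. None of the other 7 members passed, as 0% of all 17884 genes did. An unadjusted p under 0.05 was found for 1046 genes, 5 of those 7 members among them, and DESeq2 called 7 genes, none a member. At 12h 0 of 7 passed, with 0% of all genes, 1069 genes at an unadjusted p under 0.05 including 1 member (ATF3, 2.29, SE 1.04), and 15 genes called by DESeq2, none a member. Without PD pig 2 the number of genes called was 254 at 6h and 153 at 12h, with 0 members in either. The median of the 7 was 2.98 at 6h and 1.55 at 12h, against 0.02 and -0.01 over all genes. These differences depended on the GS set. Against GS pigs 44, 55 and 77 alone EGR1 was 3.47 at 6h, ATF3 1.098, FOS 0.84 and JUNB 0.82. EGR2 was 0.71 there, FOSB 0.22 and FOSL1 -2.99. At 12h in that fit EGR1 was 0.25 and ATF3 0.35, but EGR2 was -0.55, JUNB -0.59, FOS -0.85, FOSB -1.505 and FOSL1 -2.85. Against GS pigs 9 and 17 alone the 7 spanned 0.15 (FOSL1) to 7.73 (EGR1) at 6h. At 12h they spanned 0.11 (FOSL1) to 4.74 (FOSB). None of the 7 passed with either set.

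The ratios of each pig show how wide these differences are. For EGR1 at 6h the log2 ratio to 0h was -5.54, -5.98, -2.41, -0.63 and -1.44 in GS and 1.26, 3.37, -2.81 and 4.96 in PD, so PD pig 4 lay among the GS pigs. For EGR3 it was -2.57, -1.88, -0.15, -1.67 and 0.00 in GS and -0.03, 2.59, 0.17 and 3.31 in PD, given as values only. An exact two-sided permutation test over all divisions of the 9 pigs into groups of 4 and 5, whose smallest p is 0.00794, gave p = 0.0556 for EGR1, 0.0476 for EGR2 and 0.0635 for ATF3 at 6h. None of the tests of the 7 members other than EGR3 passed 0.05 once adjusted for the 16 computed. For FOS, FOSB, JUNB and FOSL1 it gave 0.19, 0.31, 0.135 and 0.198.

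**Figure D4:**
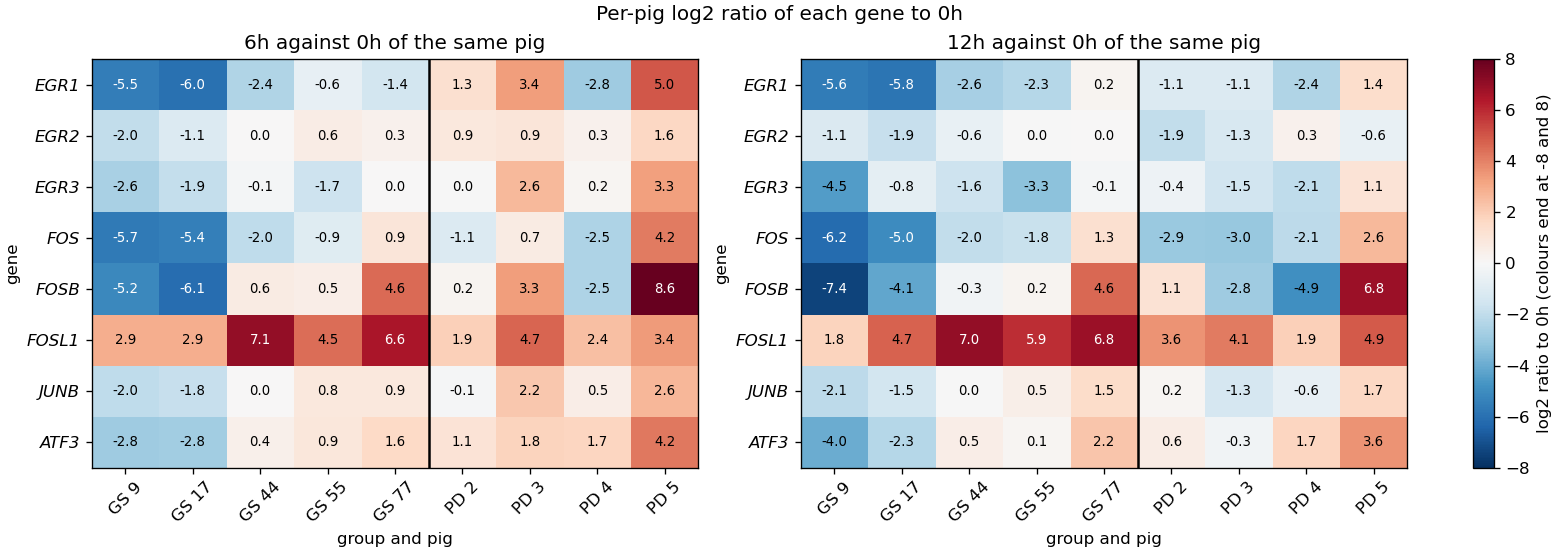
Heat map of the log2 ratio to 0h of the same pig, for each gene (rows) in each GS and PD pig (columns), at 6h on the left and 12h on the right, with the value printed in each cell. The groups overlap for EGR1 at 6h because PD pig 4 lies at -2.81, and FOSL1 is above 0 in every pig.

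The start differed as well. At 0h EGR1 spanned 1466 to 3304 CPM in GS and 44.3 to 320.0 CPM in PD, with no overlap, and was lower in PD by -3.79 (SE 0.52, adjusted p = 0.00018, 13.8-fold). EGR3 had 2 to 6 counts in PD against 76 to 1785 counts in GS, which is given with no test because it passed the filter on low counts through GS alone. EGR2 (-1.04, adjusted p = 0.00992), FOSB (-3.03, adjusted p = 0.0248) and JUNB (-1.58, adjusted p = 0.00254) were lower in PD too. The call of FOSB was lost without the filter on low counts (adjusted p = 0.0995), without GS pig 9 (-2.67, adjusted p = 0.0557), without PD pig 2 (-3.03, adjusted p = 0.0553), without PD pig 3 (-3.02, adjusted p = 0.0542) and with either set of GS pigs alone (-2.56 and -3.57, adjusted p = 0.105 and 0.0619). The call of EGR2 was lost with GS pigs 9 and 17 alone (-0.98, adjusted p = 0.129). FOS (-0.96, SE 0.61, adjusted p = 0.23), ATF3 (-1.52, SE 0.59, adjusted p = 0.0559) and FOSL1 (0.53, SE 0.66, adjusted p = 0.551) did not pass. ATF3 was called at 0h by DESeq2 (adjusted p = 0.0145), which called 45.6% of all genes, without GS pig 77 (-1.73, adjusted p = 0.0392) and without PD pig 2 (-1.93, adjusted p = 0.0359). So 4 of the 7 members other than EGR3 were called lower and 0 higher at 0h, where 19.3% of all 16477 genes were lower and 21.3% higher. Every fold change against 0h has this level as its denominator. Beside it, at 0h, summed neutrophil markers spanned 122 to 369 CPM in GS and 601 to 1225 CPM in PD. Summed red cell markers spanned 0.799 to 10.7 and 51.8 to 237 CPM, and summed alveolar type 2 markers 6524 to 9242 and 26022 to 77066 CPM. Of 4 neutrophil markers tested 2 were called higher in PD and 1 lower. Of 2 red cell markers tested 1 was called higher and 0 lower. Of 5 alveolar type 2 markers 1 was called higher, 1 lower and 3 neither, with a median of 0.64. Summed endothelial markers were lower in PD without overlap (1907 to 2690 CPM in GS and 1202 to 1713 CPM in PD). Of the 6, however, 3 were called lower and 1 higher, with a median of -0.49. Summed macrophage markers were lower without overlap too (3248 to 6213 CPM in GS and 2131 to 2795 CPM in PD), with 2 of 6 called lower and 0 higher. Summed fibroblast and smooth muscle markers overlapped (3541 to 5594 CPM in GS and 2335 to 5197 CPM in PD), but 4 of the 6 were called lower in PD, with a median of -1.25. The part of these cell types in the result was not tested.

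In GS the calls depended on the set of libraries. With pigs 44, 55 and 77 alone only FOSL1 was called at 6h, at 6.02, where 14.6% of all genes were called. There EGR1 was -1.47 (adjusted p = 0.104), FOS -0.91 (adjusted p = 0.245), FOSB 1.32 and ATF3 0.92 (adjusted p = 0.0578). With pigs 9 and 17 alone EGR1 (-5.75), FOS (-5.57), FOSB (-5.48), JUNB (-1.92) and ATF3 (-2.82) were called, and FOSL1 at 2.84 (adjusted p = 0.0581) was not, where 5.05% of all genes were called. The calls of EGR1 and FOS over the 5 pigs did not survive leaving out pig 9 or pig 17, although both genes stayed below 0. EGR1 at 6h was -2.78 (adjusted p = 0.0745) without pig 9 and -2.70 (adjusted p = 0.0791) without pig 17. FOS at 6h was -2.22 (adjusted p = 0.119) without pig 9, -2.40 (adjusted p = 0.173) without pig 17 and -3.76 (adjusted p = 0.068) without pig 44. The call of EGR3 at 12h was lost without pig 55 and without the replicate block. EGR3 was also not among the members called at 12h with pigs 9 and 17 alone. The summed fibroblast and smooth muscle markers of pigs 9 and 17 went from 5594 and 4084 CPM at 0h to 2928 and 2263 CPM at 6h, and their part in the result was not tested. At 0h EGR1 and JUNB were lower in PD with either set alone, where 37.9% of all genes were called with pigs 44, 55 and 77 and 14.2% with pigs 9 and 17.

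**Figure D5:**
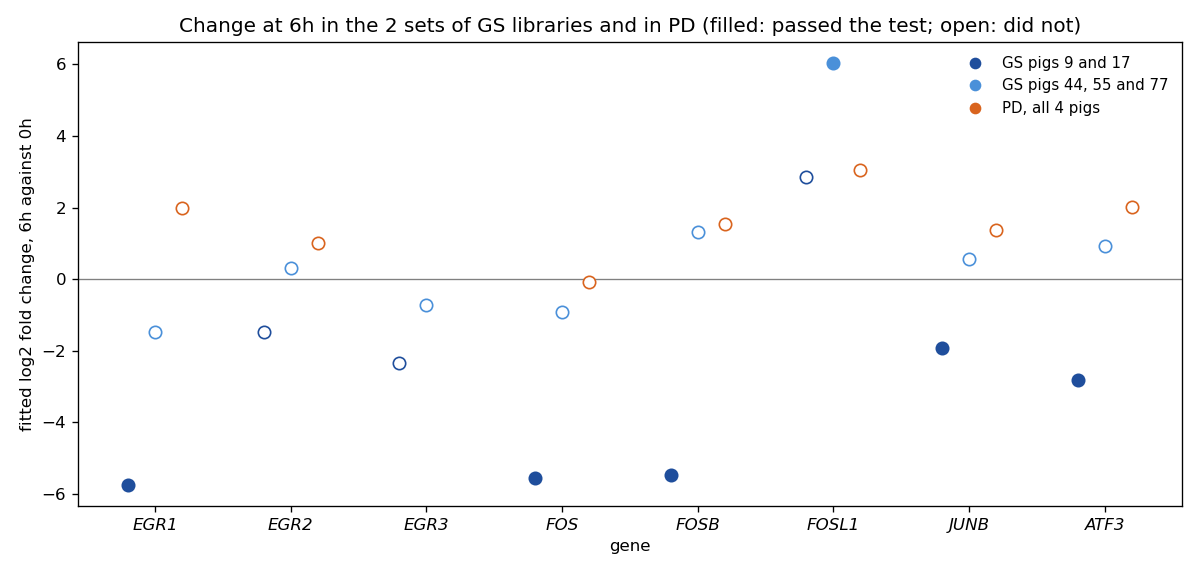
Fitted log2 fold change of each gene at 6h against 0h with GS pigs 9 and 17 alone, with GS pigs 44, 55 and 77 alone and with the 4 PD pigs, filled where the change passed the test and open where it did not. FOSL1 is above 0 in all 3 fits, whereas FOSB, JUNB and ATF3 have opposite signs in the 2 GS sets.

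In GS the members varied more between pigs than most genes did. The SD of the 6h log2 ratio over the GS pigs was 4.45 for FOSB, 2.88 for FOS, 2.42 for EGR1, 2.12 for ATF3 and 1.97 for FOSL1, against a median of 0.451 over all genes, and SDs as large were found in 0.00538%, 0.231%, 0.769%, 1.47% and 2.12% of genes. EGR2 (1.07), EGR3 (1.13) and JUNB (1.42) were reached by 12.8%, 11.4% and 6.28%. In PD the SD was 4.74 for FOSB and 3.37 for EGR1, against a median of 0.757, but EGR2 at 0.54 was reached by 73.1% of genes.

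Levels centred on each pig were compared between members. Over the 27 libraries, which share pigs, depth sets and time, 20 of the 28 pairs had a Pearson r above 0.5 and the median was 0.69, while 17.3% of all pairs among 12593 genes were above 0.5. Without EGR3, whose PD counts are low, 14 of 21 pairs were above 0.5, with a median of 0.69. The highest were EGR1 with FOS (0.92), FOSB with JUNB (0.90) and JUNB with ATF3 (0.84). The 4 pairs below 0 were all with FOSL1, the lowest being -0.37 with EGR1. FOSL1 with ATF3 was 0.28 in all, 0.04 in GS and 0.71 in PD. Among 12592 genes EGR1 was most like FOS (0.92), the MAP kinase phosphatase gene DUSP1 (0.86) and the row matched to IER2 (0.84). FOS was most like EGR1, DUSP1 (0.91) and the nuclear receptor gene NR4A2 (0.89). ATF3 was most like NUAK2 (0.92), PPP1R15A (0.89) and ZFP36 (0.85), and FOSL1 was most like NDEL1 (0.98), GSTO2 (0.96) and REM2 (0.96). These values are descriptions.

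Other genes of the pathway were counted from lists. Among all genes 5.5% were called higher and 5.56% lower in GS at 6h, and 6.99% and 8.66% at 12h. In PD the shares were 0.135% and 0.00643% at 6h, and 3.22% and 2.76% at 12h. Of 12 other AP-1 and partner genes tested, 3 were higher and 1 lower in GS at 6h, with a median of 0.55, and 2 were higher in PD, with a median of 0.69. NFIL3, a leucine zipper repressor, rose by 1.86 (adjusted p = 0.0106) in GS and 3.28 (adjusted p = 0.0176) in PD, MAFF, a small MAF protein, rose by 1.72 (adjusted p = 0.00343) in GS and 3.14 (adjusted p = 0.0176) in PD, and ATF7 fell by 1.01 (adjusted p = 0.00754) in GS. Of 30 other immediate early genes tested, 9 were higher and 1 lower in GS at 6h, with ARC at 2.50 (adjusted p = 0.00427), SOCS3 at 1.93 (adjusted p = 0.00278) and PLK2 at -1.24 (adjusted p = 0.0196). The median of the 30 in GS was 0.36 at 6h, and 10 were higher and 1 lower there at 12h. In PD 1 of the 30 was higher at 6h, with a median of 1.35, and 7 at 12h. The 1 at 6h was MAFF, which stands in both lists and is counted in each, also in GS. Of 19 genes for serum response factor and MAP kinases, 2 rose in GS at 6h, the kinase gene MAP3K8 at 1.61 (adjusted p = 0.00338) and the ternary complex factor gene ELK4 at 1.01 (adjusted p = 0.0035). At 12h 2 of the 19 were higher in GS and 0 lower. In PD 0 were called at 6h and 1, MAP3K8 at 1.89 (adjusted p = 0.0304), at 12h. Of 21 known AP-1 or EGR1 targets, 7 were higher and 0 lower in GS at 6h, among them TIMP1 at 2.01 (adjusted p = 0.000348). At 12h 8 of the 21 were higher in GS and 0 lower. In PD 0 of them passed at 6h and 5 at 12h. Of the other EGR genes and corepressors, 0 of 3 were called in GS. The medians over all genes were -0.05 in GS and -0.02 in PD.

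JUN and IER2, the other names of the list, could be placed only by gene ID. The row matched to JUN, at chr6:153685682-153687656, is annotated as a pseudogene and overlapped by a gene on the opposite strand that had 0 counts in every library of GS pigs 9 and 17 and 176 to 473 counts in pigs 44, 55 and 77. It had 176, 151, 219.6, 256 and 202 CPM in GS at 0h and 23, 17.4, 121, 255 and 202 CPM after 6h, a change of -1.56 (adjusted p = 0.0413). The change was -1.24 in GS at 12h (adjusted p = 0.0754), 0.63 in PD at 6h (adjusted p = 0.72) and -0.34 in PD at 12h (adjusted p = 0.78), none of them called. The row was lower in PD at 0h by -3.47 (adjusted p = 7.2e-05). The row matched to IER2, at chr2:65909646-65911423, is a non-coding model on the strand opposite to RefSeq's IER2, so its counts cannot be assigned to that gene. Its change at 6h in GS was -1.06 (adjusted p = 0.0663).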

How the data were processed

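RNA from lung biopsies was extracted by PicoPure or by Trizol with NucleoSpin, and which sample got which is not given in the sources used here. Stranded TruSeq libraries were sequenced on a NextSeq 500. Per the submitters' processing notes and the methods, the authors used bcl2fastq 2.2.18.12, cutadapt 1.15, TopHat2 2.0.14, featureCounts of Subread 1.6.0 and DESeq2 1.18.1 on Sscrofa11.1. The deposited values are raw counts of reads per gene.

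In R 4.3.3, edgeR 4.0.16 with limma 3.58.1 took the counts through its quasi-likelihood test with TMM scaling and a filter on low counts, for each group over time, for the difference in change with all 27 libraries, and for the groups at 0h. The changes over time were called where a gene reached a fold of 2 and its adjusted p lay under 0.05, and the other comparisons at the adjusted p alone. CPM used a prior count of 0.5 on the log2 scale only. DESeq2 1.42.0 was an alternative. The scripts were tested on simulated data. Pigs numbered alike over time are the same animal, and the pig was the block. Deviations of libraries of the same pig had a mean correlation of 0.513 in GS (other pigs -0.116) and 0.112 in PD (other pigs -0.0337). The spread left after the pig block and time, as edgeR's biological coefficient of variation, was 0.259 for GS and 0.489 for PD. It leaves out differences in level between pigs.

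Every member is named. Of each context list the genes named were those with the strongest change among those called in GS at 6h, and the most alike genes were ranked by Pearson r. A gene that this rule names is not reported here. The members and lists were chosen with earlier results of these data known. The division of the GS pigs into a pair of sets was made after seeing the data.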

Additional observations from a re-analysis of the deposited data

Results flagged for a closer look

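Among 48 groups of 4 or 5 libraries (8 genes, each at 3 times in both groups) 4 held a library far from the others by Dixon's test, and chance flags about 1 in 20 groups. FOSB stood at 85.2 CPM in GS pig 77 at 0h, where the other GS pigs had 677 to 1348 CPM. FOSB stood at 1.65 CPM in PD pig 5 at 0h, where the other PD pigs had 80.4 to 174 CPM. Both are denominators of the largest FOSB ratios. EGR2 stood at 23.8 CPM in PD pig 4 at 6h, where the others had 53.9 to 62.4 CPM. FOS stood at 266 CPM in PD pig 5 at 12h, where the others had 63.6 to 81 CPM.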

How the results depend on the processing

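Of 845 values of members under alternatives, 792 kept their side of the threshold, 34 lost and 19 gained the call, and 0 called values reversed, while 43 values called neither way turned sign. Only a member called in the main fit could lose a call. Many of the 845 lie in comparisons where 0% of all genes were called, so 792 does not measure how firm the calls were. The 845 include EGR3 between the groups. The share of all genes called stands in brackets after each count of members called. In GS at 6h the count was 3 (5.5% higher and 5.56% lower), and 1 without the replicate block (6.04%), 1 without a filter on low counts (7.18%), 1 with pigs 44, 55 and 77 alone (14.6%), 5 with pigs 9 and 17 alone (5.05%), 4 by DESeq2 (11.9%), and 1 to 3 with a pig left out (7.2% to 11.4%). In GS at 12h it was 4 (15.7%), and 1 without the block (10.2%), 2 without the filter (10.6%), 2 with pigs 44, 55 and 77 alone (18.9%), 6 with pigs 9 and 17 alone (7.64%), and 2 to 4 with a pig left out (11.6% to 18.8%). In PD at 6h it was 0 (0.142%), and 1 without the block (0.643%), 1 without the filter (0.39%), 1 in one fit of all libraries (2.68%) and 2 by DESeq2 (2.75%). In PD at 12h it was 1 (5.98%), and 0 to 1 with a pig left out (0% to 24.4%). From 6h to 12h in PD it was 0 (0%), and 2 by DESeq2 (1.44%) and 1 in one fit (2.75%). At 0h 4 members other than EGR3 were called (40.6%), and 5 by DESeq2 (45.6%), 2 with GS pigs 9 and 17 alone (14.2%) and 3 to 5 with a pig left out (34.2% to 43.6%). EGR3 is not used as evidence between the groups. With it the counts at 0h were 5, 3 with pigs 9 and 17 alone and 4 to 6 with a pig left out, and at 6h the exact Wilcoxon test, unadjusted, counted it as the 1 member (6.04%) where the difference in change otherwise gave 0 (0%). The replicate block changed no other count. The cause of these moves was not tested. The PD libraries have the least depth.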
